A study of Mus musculus with 33 samples.

Results

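Macrophages, monocytes and dendritic cells of the gut wall are known for a set of transcripts of phagocytosis, complement and antigen presentation, and 31 such genes were followed through regulatory T cells (Treg) sorted from colons of mice. They were taken by symbol from the deposited count table of 53465 genes, and every symbol matched 1 row. The 31 genes comprise 11 genes of the macrophage surface and the complement protein C1q, 7 signalling adaptors and myeloid factors, 6 lysosomal or secreted proteins, and 7 genes of major histocompatibility complex (MHC) class II presentation. The question put to them was how the levels of these transcripts differed between sort gates and between naive and cancer-bearing mice, and how the gate and cancer differences of other genes behaved beside them.

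Cells were sorted as CD45+TCR+CD4+Foxp3+ from colons of 7 to 12 week old mice with the genotype label Foxp3-yfp B6, in which a yellow fluorescent reporter marks Foxp3, the master factor of Treg. Each mouse gave 4 gates, set by the receptor for the cytokine TSLP (TSLPR, gene Crlf2) and the interleukin-33 receptor ST2 (gene Il1rl1) and named for both signs, from TSLPR-ST2- (neither receptor) through TSLPR-ST2+ (ST2 alone) and TSLPR+ST2- (TSLPR alone) to TSLPR+ST2+ (both). Mice 1 to 4 were naive. Mice 5 to 8 had colitis-associated cancer after 1 injection of azoxymethane (AOM) at 10 mg/kg and 3 cycles of 7 days of dextran sulfate sodium (DSS), and were taken 2 weeks after the last DSS. Each of the 8 groups, status by gate, therefore held 4 libraries, 1 per mouse, each from 200 cells. No group with AOM alone or DSS alone was analysed here, so the tumours, the colitis and the chemicals cannot be told apart. A single library of Foxp3-negative CD44low T cells, whose mouse the labels do not name, is given as values only.

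C1q, made of the products of C1qa, C1qb and C1qc, opens the classical complement cascade, and tissue macrophages are a main source of it. Csf1r is the receptor that keeps macrophages alive, Lyz2 encodes lysozyme, Apoe a lipid carrier, and Tyrobp and Fcer1g are the signalling chains of many activating receptors. MHC class II molecules (H2-A from H2-Aa and H2-Ab1, H2-E with its beta chain from H2-Eb1) present peptides to CD4+ T cells. Their invariant chain is Cd74, H2-DM (H2-DMa, H2-DMb1) exchanges the peptide, and Ciita is the coactivator that switches the class II genes on. Dendritic cells, macrophages and B cells all make class II, whereas mouse T cells are not known for making much of it.

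Total counts ran from 4038718 to 8839946 per library. Foxp3 lay between 59.9 and 222 CPM (counts relative to the library's total, with totals scaled by the trimmed mean of M-values, TMM) in the 32 Treg libraries. Il1rl1 was at 95.6 to 309 CPM in ST2+ gates against 0 to 11.001 CPM in ST2- gates. Crlf2 was at 25.2 to 57.2 CPM in TSLPR+ gates against 8.76 to 30.5 CPM in TSLPR- gates, and this overlap comes from mouse 5, whose TSLPR-ST2+ library (30.5 CPM) exceeded its TSLPR+ST2+ library (25.2 CPM). The cancer TSLPR+ST2+ library of mouse 7 stood apart, with epithelial markers summing to 14072 CPM against 189 to 531 CPM in the other libraries of its group. In whole sorted samples, fewer cells of a type and less RNA per cell cannot be told apart.

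All 31 genes passed the filter on low counts, but they fell into a part seen everywhere and a part that came and went. Of these, 10 were detected in all 32 Treg libraries (Cd68, Cd74, H2-DMa, Cd86, Lst1, Ctss, Cst3, Apoe, Lgmn and Cybb), and the other 21 were at 0 in at least 1 library. Itgax, Itgam and Cd14, which encode the integrins CD11c and CD11b and the endotoxin coreceptor, were each detected in under 16 libraries. Per kilobase of exon, the highest mean levels over the 32 libraries were those of the protease Ctss (458 CPM per kb), Cd74 (354), Lyz2 (345), the protease inhibitor Cst3 (167), Apoe (142) and H2-Ab1 (120). These means run over unlike gates, as the heat map by library shows. In GRCm38 with GENCODE M21 gene models, the 3 C1q genes lie side by side on the minus strand at chr4:136880129-136898803, Ctss at chr3:95526786-95556403, Lyz2 at chr10:117277331-117282321, Apoe at chr7:19696109-19699188 and H2-DMa at chr17:34119541-34139101.

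**Figure D1:**
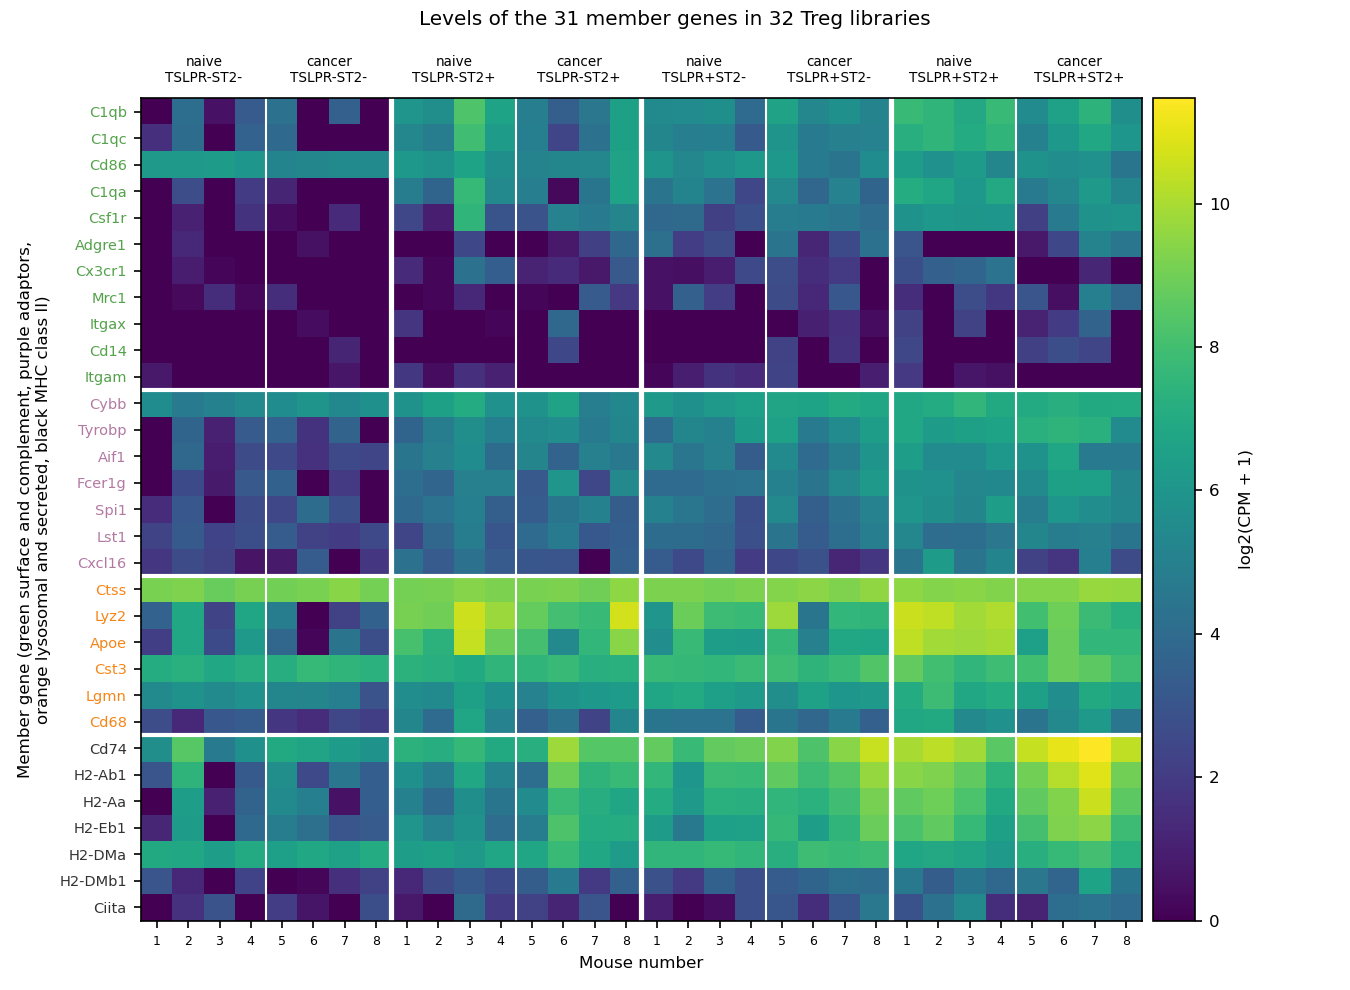
Each row is 1 of the 31 genes, grouped by role, and each column 1 Treg library, ordered by gate and status with the mouse number below, and colour gives log2(CPM + 1). The rows of Ctss, Cst3, H2-DMa, Cd86 and Cybb stay above 0 in every library, from 452 to 830 CPM for Ctss and from 26.7 to 185 CPM for Cybb. Those of C1qa, C1qb, C1qc, Csf1r, Lyz2 and Apoe change colour more between libraries, from 0 to 206 CPM for C1qa and from 0 to 1641 CPM for Lyz2.

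Some cancer TSLPR-ST2- libraries had few or no counts of the main macrophage genes and still held others of the 31. In the cancer TSLPR-ST2- library of mouse 6, Lyz2, C1qa, C1qb, C1qc, Csf1r and Fcer1g all had 0 counts, while Ctss was at 566.5 CPM, Cst3 at 203, H2-DMa at 117, Cd74 at 102, Cybb at 60.6, Cd86 at 37.1 and Lgmn at 36.6. The cancer TSLPR-ST2- library of mouse 8 also had 0 counts of the 3 C1q genes and 545 CPM of Ctss. Ctss, which cleaves the invariant chain, was thus as high there as over all 32 libraries, where it ranged from 452 to 830 CPM. The Foxp3-negative library held the same genes: Ctss at 452 CPM, Cst3 at 97.3, H2-DMa at 96.1, Lgmn at 34.9 and Cd86 at 26.6. CPM of that library are relative to its plain total. It was not free of macrophage genes, with Lyz2 at 34.2 CPM, Apoe at 21.5, C1qb at 14.1 and C1qc at 2.71. C1qa was at 0.570 and Csf1r at 0.142 CPM in it. Cybb, the NADPH oxidase chain, was at 0 there, and Cd74 at 17.8 CPM.

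For summed levels, 12 of the 31 genes (C1qa, C1qb, C1qc, Csf1r, Adgre1, Mrc1, Cx3cr1, Cd14, Lyz2, Cd68, Itgam and Apoe) made up a macrophage core, and the 7 class II genes a class II sum. In naive mice the core sum was 19.1, 22.7, 214 and 272 CPM in the TSLPR-ST2- gate, and 2259, 2714, 2940 and 3527 CPM in the TSLPR+ST2+ gate. The naive TSLPR-ST2+ gate lay between, at 766, 1007, 1602 and 4039 CPM, and the naive TSLPR+ST2- gate at 263, 346, 452 and 856 CPM. In cancer the sum was 2.36, 19.9, 42.2 and 80.6 CPM in TSLPR-ST2-, 376, 511, 802 and 2715 CPM in TSLPR-ST2+, and 171, 412, 490 and 1376 CPM in TSLPR+ST2-. Cancer TSLPR+ST2+ libraries held 479, 616, 967 and 1230 CPM, all under the lowest naive library of that gate.

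Class II transcripts followed another order. Their sum in naive mice was 118, 191, 220 and 812 CPM in TSLPR-ST2- and 308, 311, 401 and 517 CPM in TSLPR-ST2+. It was 559, 1015, 1097 and 1106 CPM in naive TSLPR+ST2- and 843, 2010, 2506 and 2947 CPM in naive TSLPR+ST2+. The naive TSLPR-ST2+ gate, next to the highest in the macrophage core by its median, was below both TSLPR+ gates in class II. In cancer the class II sum was 204, 225, 273 and 338 CPM in TSLPR-ST2-, 357, 897, 923 and 2116 CPM in TSLPR-ST2+, 1032, 1577, 1697 and 3541 CPM in TSLPR+ST2-, and 2637, 2766, 4739 and 7304 CPM in TSLPR+ST2+. The class II sum divided by the core sum was 0.311 to 1.00 in naive and 3.85 to 7.55 in cancer TSLPR+ST2+ libraries.

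**Figure D2:**
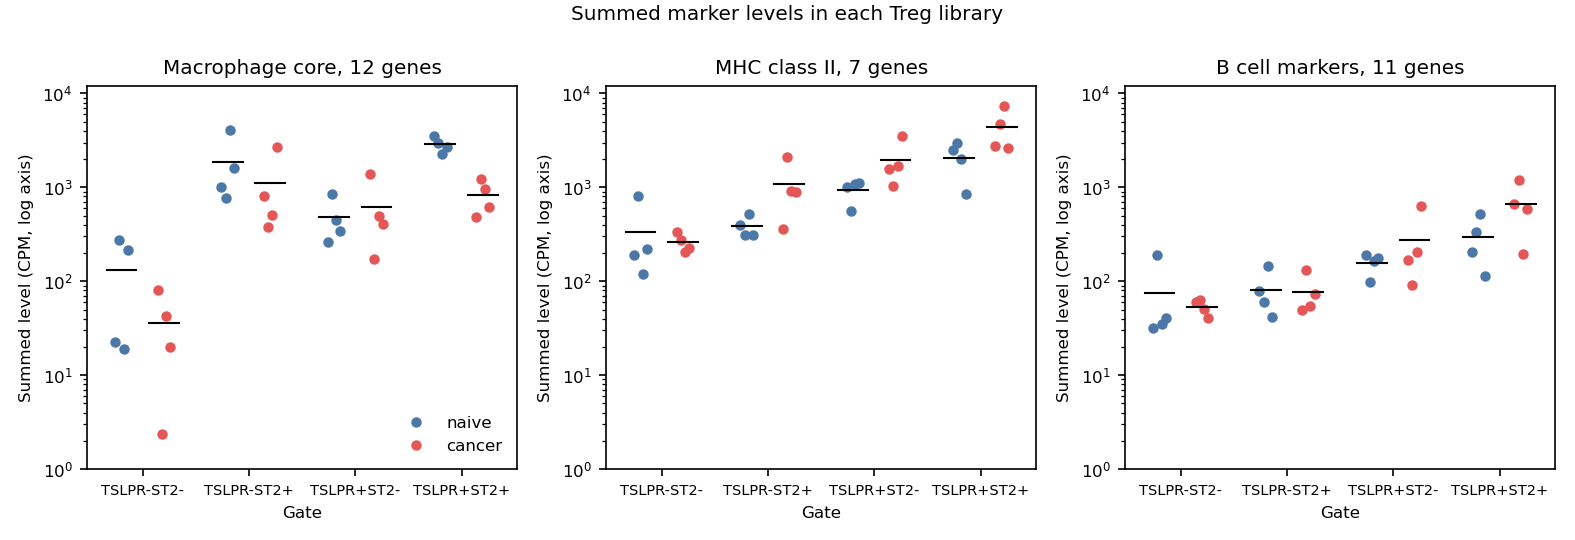
Summed levels (CPM, log axis) of the macrophage core, the MHC class II genes and the B cell markers by gate, with 1 point per library (blue naive, red cancer) and a line at the mean of each group. In the TSLPR+ST2+ gate the 4 cancer libraries lie below all 4 naive libraries in the macrophage core (479 to 1230 against 2259 to 3527 CPM), while the class II sums of the same libraries overlap.

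Markers of other cells were summed in the same libraries. The 11 dendritic cell markers summed to 119, 173, 212 and 501 CPM in naive TSLPR+ST2+ libraries and to at most 172 CPM in any library of the other 7 groups. Most of the 501 CPM of mouse 4 was Ccl22, a chemokine of activated dendritic cells, at 406 CPM. Among markers of dendritic cell subsets, Siglech, of plasmacytoid dendritic cells, was detected in 24 of 32 libraries and reached 117 CPM, Xcr1 reached 17.9 CPM, and Clec9a was detected in 5 and Cd209a in 4 libraries. The 11 B cell markers summed to 91.1 to 1188 CPM (median 201.4) in TSLPR+ libraries and to 31.8 to 190 CPM (median 57.6) in TSLPR- libraries. Of 7 neutrophil markers, S100a9, Retnlg and Elane were at 0 in every Treg library, and so were 5 of 8 mast cell markers (Mcpt1, Mcpt2, Cma1, Fcer1a and Ms4a2). Of the others, Csf3r was detected in 8 libraries (up to 14.8 CPM), Cxcr2 in 7 (up to 11.3 CPM), Kit in 19 (up to 18.6 CPM) and Cpa3 in all 32 (up to 5.55 CPM).

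Comparing ST2+ with ST2- gates, 19 of the 31 genes were higher and 0 lower in ST2+ libraries (edgeR quasi-likelihood test, adjusted p at most 0.05), where 3.7% of all 14861 genes tested were higher and 2.33% lower. The median log2 fold change was 1.66 over the 31 genes and -0.00497 over all genes. By role, 6 of 11 surface and complement genes, 7 of 7 adaptors and myeloid factors, 3 of 6 lysosomal genes and 3 of 7 class II genes were higher. All 8 mice contribute 2 gates to each side. With each mouse left out in turn, 12 genes passed every time (C1qa, C1qb, C1qc, Csf1r, Apoe, Lyz2, Cd68, Tyrobp, Fcer1g, Aif1, Cybb and Cd74).

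C1qa ranged from 0.181 to 206 CPM (median 40.2) in the 16 ST2+ libraries and from 0 to 41.7 CPM (median 5.01) in the 16 ST2- libraries, of which 5 had none. It was higher in the ST2+ libraries of all 8 mice, with a log2 fold change of 3.80 ± 0.563 (SE, edgeR adjusted p = 5.66e-05). Apoe, at 41.8 to 1396 CPM (median 370) against 0.147 to 218 CPM (median 59.9), was 9.29-fold higher (edgeR adjusted p = 0.000112). Both genes overlapped between the gates, and the highest ST2- values were those of TSLPR+ST2- libraries.

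Lyz2 lay at 156 to 1641 CPM (median 524) in ST2+ and 0 to 892 CPM (median 85.2) in ST2- libraries, a log2 difference of 2.96 ± 0.505 (edgeR adjusted p = 0.000463). In their ST2+ libraries 7 of 8 mice had more Lyz2. Its near copy Lyz1 is counted as a separate gene, and how reads common to the pair were assigned was not given in the sources used here, so the split between them is uncertain. Cd68, a lysosomal glycoprotein, was at 4.18 to 124 against 1.46 to 26.6 CPM and rose 4.73-fold (edgeR adjusted p = 1.84e-05). Csf1r was at 0.928 to 180 against 0 to 26.8 CPM (edgeR adjusted p = 0.000107), with its highest value in the naive TSLPR-ST2+ library of mouse 3. About 15.1% of its exon bases are shared with Hmgxb3 on the other strand.

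Among the adaptors, Tyrobp rose 3.66-fold (11.9 to 174 against 0 to 93.8 CPM, edgeR adjusted p = 0.00248) and Fcer1g 3.92-fold (4.47 to 90.0 against 0 to 71.7 CPM, edgeR adjusted p = 0.00824). Aif1, a calcium-binding protein of macrophages, rose 3.42-fold, Spi1, which encodes the myeloid factor PU.1, 2.92-fold, and the membrane protein gene Lst1 2.10-fold. The chemokine gene Cxcl16 rose 3.43-fold, with 18.3% of its exon bases shared with Zmynd15, and Cybb 1.55-fold. Calls of the sparse genes Itgax and Cx3cr1, at 0 in 20 and 10 of 32 libraries, did not pass with mouse as a block (edgeR adjusted p = 0.0573 and 0.0721).

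The class II genes split in this comparison. Cd74 was at 123 to 2829 CPM (median 624) in ST2+ and 25.2 to 1449 CPM (median 261) in ST2- libraries, 2.47-fold higher (edgeR adjusted p = 0.00905). H2-Eb1 (3.36-fold, edgeR adjusted p = 0.0167) and H2-DMb1 (3.17-fold, edgeR adjusted p = 0.0295) also passed, and both lost the call when single mice were left out. H2-Aa and H2-Ab1 did not pass (edgeR adjusted p = 0.0681 and 0.0576), although their log2 differences were 1.41 and 1.57. For H2-DMa the log2 difference was -0.29 ± 0.113, with 69.5 to 261 against 85.1 to 235 CPM (edgeR adjusted p = 0.126). Ctss differed by 0.12 on the log2 scale (edgeR adjusted p = 0.225).

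TSLPR+ gates held more of the class II genes. Comparing TSLPR+ with TSLPR- gates, 22 of the 31 genes were higher and 0 lower (edgeR quasi-likelihood test), where 7.97% of all genes tested were higher and 5.46% lower. These were 5 of 11 surface and complement genes, 6 of 7 adaptors and myeloid factors, 5 of 6 lysosomal genes and 6 of 7 class II genes. The median log2 fold change was 1.81 over the 31 genes and 0.01 over all genes. With each mouse left out in turn, 18 of the 22 passed every time, and Adgre1, C1qc, Ctss and Lyz2 did not.

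H2-Aa lay at 69.8 to 1479 CPM (median 271) in TSLPR+ and 0 to 224 CPM (median 30.9) in TSLPR- libraries, and was higher in the TSLPR+ libraries of all 8 mice. The difference was 8.14-fold (log2 3.03 ± 0.485, edgeR adjusted p = 8.81e-05). H2-Ab1, at 65.1 to 1915 against 0 to 471 CPM, was 7.34-fold higher (edgeR adjusted p = 0.000344). Cd74, at 211 to 2829 against 25.2 to 874 CPM, was 5.09-fold higher (edgeR adjusted p = 7.59e-06). All 8 mice had more of both genes in TSLPR+ than in TSLPR- libraries.

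H2-Eb1 rose 5.34-fold and H2-DMb1 3.81-fold, the latter from levels of 0 to 26.2 CPM in TSLPR- libraries. H2-DMa, with Cd74 the class II gene detected in all 32 libraries, rose 1.53-fold (69.6 to 261 against 69.5 to 209 CPM, edgeR adjusted p = 0.000345). Ciita was sparse, with 0 to 44.1 CPM in TSLPR+ and 0 to 14.4 CPM in TSLPR- libraries, and did not pass (edgeR adjusted p = 0.236). Reads of H2-DMb1 and H2-Eb1 may be split with the near copies H2-DMb2 and H2-Eb2, and 10.4% of the exon bases of H2-DMa lie opposite Brd2.

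Class II genes share a promoter layout, an X box upstream of a Y box, where the complex that recruits the Ciita product binds. Of the 31 genes, 19 had a promoter in the RefSeq table (GRCm38.p6). The 3 printed here are of class II genes that were higher in TSLPR+ gates, and run from 120 bases to 1 base before the start of the gene, 5′ to 3′ on the gene's strand. Capitals mark matches, on either strand, to GATTGG (Y box) or to AGNAACN followed directly by GNTG (X box).
H2-Aa: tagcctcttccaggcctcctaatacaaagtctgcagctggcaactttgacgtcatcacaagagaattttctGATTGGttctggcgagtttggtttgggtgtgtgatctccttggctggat
H2-Eb1: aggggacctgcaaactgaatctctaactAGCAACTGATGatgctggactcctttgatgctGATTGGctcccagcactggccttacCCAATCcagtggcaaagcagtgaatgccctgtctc
H2-DMb1: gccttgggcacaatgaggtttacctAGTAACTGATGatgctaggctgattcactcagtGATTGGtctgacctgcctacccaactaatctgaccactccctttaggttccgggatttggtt
They lie at chr17:34287824-34287943 (H2-Aa, minus strand), chr17:34305747-34305866 (H2-Eb1, plus strand) and chr17:34153071-34153190 (H2-DMb1, plus strand). The Y box letters were found in 5 of the 19 genes with a promoter (Cd68, H2-DMa, H2-DMb1, H2-Aa and H2-Eb1). They were found in 16.1% of 32851 promoters of 250 bases before to 50 after the start. The X box letters were found in 2 of the 19 genes, H2-DMb1 and H2-Eb1, and in 1.18% of all promoters. The matches do not overlap: the X box begins at -92 and the Y boxes at -60 and -35 in H2-Eb1, the X box at -95 and the Y box at -62 in H2-DMb1, and the Y box at -49 in H2-Aa. A match describes letters and shows no binding.

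Several macrophage genes were also higher in TSLPR+ gates. C1qa was at 4.40 to 134 CPM (median 36.3) in TSLPR+ and 0 to 206 CPM (median 4.36) in TSLPR- libraries, and its log2 difference was 2.57 ± 0.550 (edgeR adjusted p = 0.00173). Whether it differs from the 3.80 between ST2 gates was not tested. Csf1r (5.75-fold), C1qb (3.50-fold), C1qc (3.33-fold) and Cd68 (2.80-fold) passed as well. Lyz2, at 21.02 to 1504 CPM (median 241) against 0 to 1641 CPM (median 167), was 2.95-fold higher (edgeR adjusted p = 0.0311), and 6 of 8 mice showed that direction. Apoe did not pass (edgeR adjusted p = 0.0585, or 0.0492 with mouse as a block). The macrophage surface gene Adgre1, which encodes F4/80, was at 0 in 10 of 16 TSLPR- and 4 of 16 TSLPR+ libraries, and its call was lost with mouse as a block (edgeR adjusted p = 0.199). With that block, the mannose receptor gene Mrc1, at 0 in 7 TSLPR- and 3 TSLPR+ libraries, passed (edgeR adjusted p = 0.0240, against 0.0629 without).

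Of the genes detected in every Treg library, Cd74 and Cd68 are given above, and Cybb, Lgmn, Cst3, Ctss and Lst1 also rose. Cybb rose 2.005-fold, with a log2 difference of 1.00 ± 0.141 (53.5 to 185 against 26.7 to 134 CPM, edgeR adjusted p = 9.36e-06). Lgmn, an asparagine endopeptidase of lysosomes, rose 2.11-fold (48.8 to 229 against 6.69 to 90.4 CPM) and Cst3 1.64-fold (173 to 455 against 112 to 219 CPM). Ctss rose 1.15-fold (538 to 830 against 452 to 726 CPM, edgeR adjusted p = 0.0172), and lost the call without mouse 1. Tyrobp (5.32-fold), Fcer1g (4.06-fold), Aif1 (3.85-fold), Spi1 (3.56-fold) and Lst1 (2.29-fold) rose among the adaptors, and Cxcl16 did not pass (edgeR adjusted p = 0.255). Cd86, a costimulatory ligand, passed in neither gate comparison, with log2 differences of 0.18 (ST2) and -0.16 (TSLPR).

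**Figure D3:**
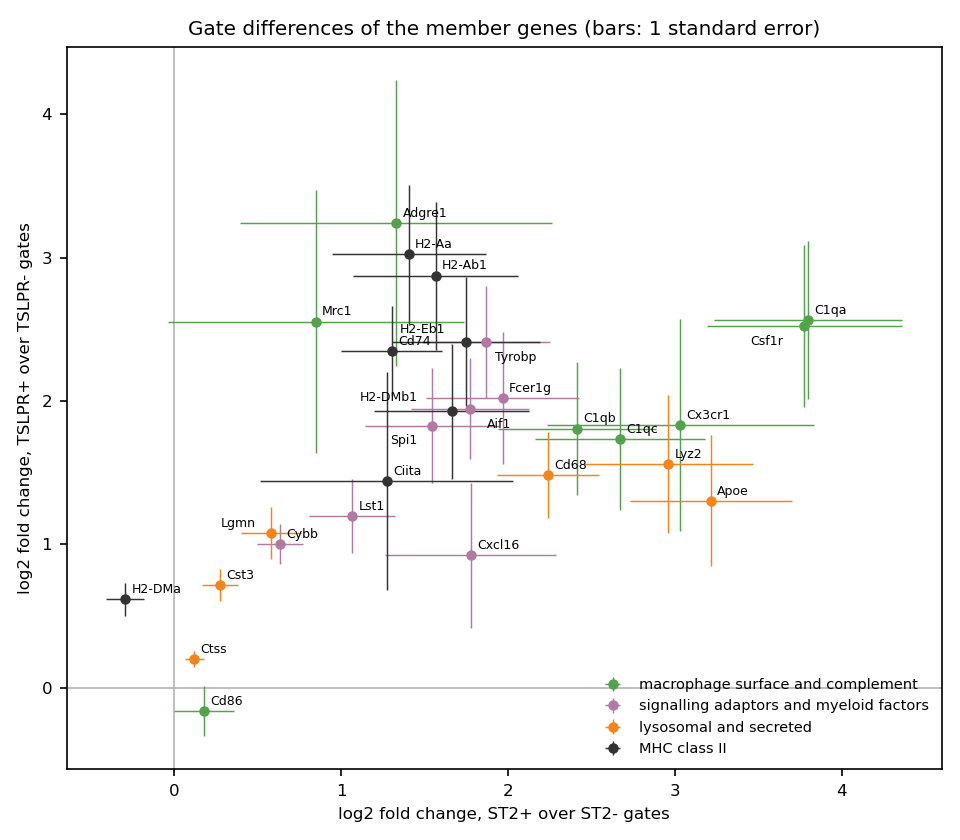
Log2 fold change between ST2+ and ST2- gates (x axis) and between TSLPR+ and TSLPR- gates (y axis) for 28 of the 31 genes, coloured by role, with bars of 1 standard error. Itgax, Itgam and Cd14 are left out because a standard error exceeded 5. C1qa and Csf1r lie farthest to the right (3.80 and 3.78), H2-Aa lies high at a smaller ST2 difference (3.03 against 1.41), and Ctss and Cd86 lie near 0 on both axes.

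Lists of related genes moved alongside. Of 19 other macrophage and monocyte genes, 15 were tested and 8 were higher in ST2+ gates and 0 lower, among them Mertk, Fcgr1, Ms4a7, Sirpa and Fcgr3. Fcgr3, a low-affinity antibody receptor, had a median of 11.8 CPM in ST2+ libraries. In TSLPR+ gates 7 were higher, among them Ms4a7, Sirpa, Ccr2 and Fcgr3. Of 12 other genes of the class II pathway, H2-Oa and the thiol reductase gene Ifi30 were higher in both comparisons and H2-DMb2 in TSLPR+ gates, while the promoter-binding factors (Rfx5, Rfxank, Rfxap, Nfya, Nfyb, Nfyc and Creb1) passed in neither.

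Dendritic and B cell markers differed in the TSLPR comparison. Of 8 dendritic cell genes tested, 0 passed between ST2 gates by edgeR (3 had an unadjusted p under 0.05, and DESeq2 called 1), and Clec10a, Flt3 and Siglech were higher in TSLPR+ gates. Siglech had a median of 15.1 CPM in TSLPR+ libraries and was 23.99-fold higher (edgeR adjusted p = 7.29e-05). Of 11 B cell genes, 10 were higher in TSLPR+ gates, and 0 passed between ST2 gates by edgeR (6 had an unadjusted p under 0.05, and DESeq2 called 3). Cd79a, a chain of the B cell receptor, was at 5.90 CPM or more in every TSLPR+ library (median 37.3) and 5.49-fold higher (edgeR adjusted p = 0.000796). Sparse markers of neutrophils and mast cells passed singly: Csf3r between ST2 gates (edgeR adjusted p = 0.0478), and Cxcr2 (0.0483) and Kit (0.0239) between TSLPR gates, each higher in the positive gate. Of 8 epithelial genes tested, Car1 and Epcam were higher in ST2+ gates, and Car1, Krt20 and Epcam in TSLPR+ gates. Of 10 T cell and Treg genes, Il2ra, Cd3e and Foxp3 were lower and Ikzf2 higher in ST2+ gates. In TSLPR+ gates Cd3g, Cd3e, Cd3d, Ctla4 and Ikzf2 were higher and 0 lower. Their part in the gate differences was not tested.

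To see how gate differences stood beside these transcripts, the log2 core sum was added to the model of the 8 groups. Since the core sum itself differed between the gates, gate and core sum overlap in that model and the errors widen. Of 897 genes called between ST2 gates, 32 were called in both models and 37 in the model with the core sum. The median called gene kept a share of 0.920 of its log2 fold change, and 877 of 897 kept its sign, while the median standard error went from 0.162 to 0.285. Among the 19 genes of the 31 that are outside the core, 11 passed between ST2 gates alone and 0 with the core sum. For Tyrobp the ST2 log2 difference went from 1.87 to 0.19 ± 0.557 and for Fcer1g from 1.97 to -0.08 ± 0.587. It stayed at 0.84 ± 0.252 for Cybb (0.63 without) and went to 0.72 ± 0.510 for Cd74 (1.30 without). In the same role, Aif1 went from 1.77 to 0.29 ± 0.557, Lst1 from 1.07 to 0.42 ± 0.430, Spi1 from 1.545 to 1.24 ± 0.733 and Cxcl16 from 1.78 to 2.53 ± 1.02. Tyrobp, Fcer1g, Aif1, Lst1 and Spi1 thus had smaller estimates with the core sum, and Cybb and Cxcl16 larger ones. Whether these shifts exceed the errors was not tested.

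Between TSLPR gates the same step kept more. Of 1996 genes called, 636 were called in both models, the median share of the log2 fold change kept was 0.964, and the median standard error went from 0.139 to 0.187. Of 15 genes outside the core that passed, 6 passed with the core sum: Cd74, Cst3, Cybb, H2-Aa, H2-DMa and Lgmn. Cd74 kept a log2 difference of 1.99 ± 0.417 (edgeR adjusted p = 0.00474) and H2-Aa 2.495 ± 0.646 (edgeR adjusted p = 0.0240). With the summed B cell markers in place of the core, 333 of the 1996 genes were called in both models, and of the 31 genes 2 passed, Cd74 (log2 1.18 ± 0.311, edgeR adjusted p = 0.0331) and Lgmn (1.06 ± 0.283, edgeR adjusted p = 0.0381). The B cell sum itself differed between these gates, so gate and B cell sum overlap in that model. The median called gene kept a share of 0.998 of its log2 fold change, while the median standard error went from 0.139 to 0.232. With the B cell sum, H2-Ab1 went from 2.88 to 1.61 ± 0.577 and H2-Eb1 from 2.42 to 1.02 ± 0.492. Between ST2 gates the B cell sum left 8 of the 11 genes called.

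**Figure D4:**
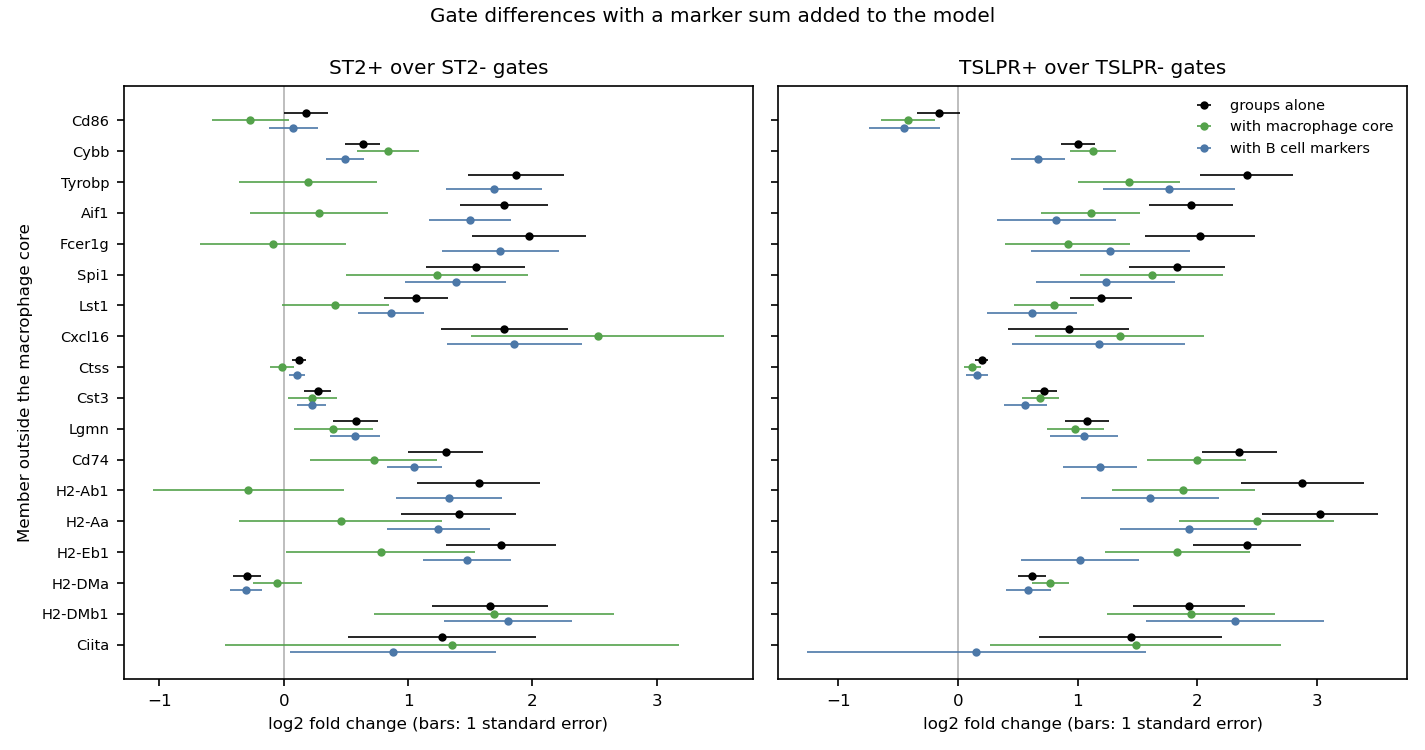
Log2 fold changes with bars of 1 standard error for 18 of the 19 genes outside the macrophage core, between ST2 gates (left) and TSLPR gates (right), from the model of the groups alone (black), with the macrophage core sum (green) and with the B cell sum (blue). On the left the green points of Tyrobp, Fcer1g and H2-Ab1 sit near or below 0, and on the right every green point of the class II genes stays above 0 while the blue points of H2-Eb1 and Cd74 lie to its left.

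Within groups, the core and the class II sums were not close companions. Over deviations from the group means in the 32 libraries, which share mice, the correlation was 0.267 between the core and class II sums, 0.644 between class II and B cell sums, and 0.210 between class II and dendritic sums, given as descriptions. Each gene was set against the sums without itself. Apoe (r = 0.907), C1qb (0.824) and Lyz2 (0.779) followed the core most closely, and Cd74 (0.924), H2-Eb1 (0.859) and H2-Ab1 (0.824) the class II sum. Outside both, Fcer1g (0.686), Aif1 (0.611) and Tyrobp (0.609) followed the core, whereas Cybb (-0.196), Cst3 (0.06) and Lgmn (0.12) did not. H2-DMa followed the core at -0.278 and the class II sum at 0.363. The other class II genes followed the core at 0.0411 (Ciita) to 0.529 (H2-Ab1), with H2-Eb1 at 0.435. The core gene Csf1r followed the rest of the core at 0.515.

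Among genes outside the 31, those whose within-group deviations were most like the core sum were Pla2g2d (r = 0.685), Tmem106a (0.623), Cela1 (0.613), Zcchc3, Vcam1 (0.585), Rapsn, Phlpp2, Colgalt1, Mpg and Bambi (0.570), over 32 libraries. Of 13442 genes outside the 31 with at least 1 CPM on average, 6.20% had r over 0.3 with the core sum. The share was 14.1% of 512 genes called higher in ST2+ gates, 1.55% of 323 called lower, 10.6% of 1082 called higher in TSLPR+ gates and 3.67% of 245 called higher in cancer in the TSLPR+ST2+ gate. With the class II sum, 12.3% of the 13442 genes had r over 0.3, against 42.9% of those 245 and 0.270% of 371 called lower in cancer in that gate. That gate includes the library of mouse 7 with the highest class II and epithelial sums, and its part in these shares was not tested.

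Between cancer and naive mice, H2-DMa passed in 1 gate, and the other genes in none. In TSLPR+ST2+ Treg 1 of the 31 genes was higher and 0 lower (edgeR quasi-likelihood test), where 1.66% of all genes tested were higher and 2.5% lower. H2-DMa was at 69.6, 101, 106 and 122 CPM in naive and 148, 153, 206 and 261 CPM in cancer libraries, which did not overlap. The log2 difference was 0.95 ± 0.229 (edgeR adjusted p = 0.0175). It was 0.76 without the cancer library of mouse 7 (edgeR adjusted p = 0.0791), 0.81 with the core sum in the model (edgeR adjusted p = 0.0711) and 0.14 with the mitochondrial share of counts in the model (edgeR adjusted p = 0.961). Leaving out mice 3, 4 or 7 also ended the call, as did fitting the 8 libraries of the gate alone, and 14 of 21 alternatives kept it (adjusted p from 0.00174 to 0.961). The mitochondrial share was 0.616% to 1.24% of counts in naive and 1.43% to 3.23% in cancer libraries of the gate, without overlap, and its part in the difference was not tested further.

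Roles pointed in different directions in this gate, mostly without passing. Median log2 differences were -0.78 for surface and complement genes, -0.94 for lysosomal genes, -0.09 for adaptors and 1.09 for class II genes, against 0.05 over all genes. Lyz2 was at 932, 1083, 1317 and 1504 CPM in naive and 156, 224, 252 and 489 CPM in cancer libraries, without overlap, and its log2 difference of -2.11 ± 0.961 did not pass (edgeR adjusted p = 0.215). Fitted on the 8 libraries of the gate alone, Lyz2 passed at -2.11 ± 0.319 (edgeR adjusted p = 0.0443) as the single gene of the 31, where 0.125% of 11997 genes were lower. Apoe was at 878, 953, 975 and 1338 CPM against 88.1, 191, 194 and 460 CPM, again without overlap (log2 -2.15 ± 0.914, edgeR adjusted p = 0.179, or 0.0691 on the 8 libraries alone). The larger errors are those of the model with a spread shared over all 8 groups.

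C1qc was at 133, 152, 181 and 181 CPM in naive and 32.2, 63.2, 69.3 and 115 CPM in cancer TSLPR+ST2+ libraries. Cx3cr1, the fractalkine receptor gene, was at 5.75, 10.4, 12.3 and 19.7 CPM against 0, 0, 0 and 1.36 CPM. Neither passed (edgeR adjusted p = 0.532 and 0.0796), though neither overlapped. With mouse as a random effect in limma, Cx3cr1 passed (limma adjusted p = 0.0128). Cd74 was at 375, 943, 995 and 1283 CPM in naive and 1311, 1393, 2114 and 2829 CPM in cancer libraries, and did not pass (edgeR adjusted p = 0.320). In all, 4 genes (Lyz2, C1qc, Cx3cr1 and Apoe) lay wholly below and 2 (Cd74 and H2-DMa) wholly above the naive libraries, where 5.48% and 3.98% of all genes did.

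Csf1r and H2-Aa overlapped in this gate. Csf1r was at 56.8, 63.8, 65.7 and 68.6 CPM in naive libraries and at 3.46, 26.7, 57.0 and 61.0 CPM in cancer libraries. H2-Aa was at 126, 295, 403 and 491 CPM against 380, 407, 633 and 1479 CPM, with the highest value in mouse 7. Of the related lists, 0 of 15 other macrophage genes passed in this gate by edgeR, with 0 unadjusted p values under 0.05 and 0 called by DESeq2. Fscn1, a bundling protein of mature dendritic cells, fell (10.7 to 59.2 CPM in naive, 4.06 to 8.66 CPM in cancer, edgeR adjusted p = 0.0384), Ccl22 did not pass (11.8 to 406 against 0 to 7.77 CPM, edgeR adjusted p = 0.0640), and 0 of 11 B cell genes passed (1 unadjusted p under 0.05, 0 called by DESeq2). The B cell sums were 115 to 526 CPM in naive and 197 to 1188 CPM in cancer libraries of the gate, and their part in the class II values was not tested there beyond the model with the B cell sum, in which H2-DMa still passed (edgeR adjusted p = 0.0321). Other markers moved with these values in the gate: 5 of 8 epithelial genes were higher in cancer (Krt19, Car1, Krt20, Krt8 and Lgals4), Cd5, Il2ra and Foxp3 of 10 T cell and Treg genes were lower and Ikzf2 higher, and Nfyb of the class II pathway was higher (edgeR adjusted p = 0.0297). Foxp3 was at 107 to 187 CPM in naive and 59.9 to 122 CPM in cancer libraries (edgeR adjusted p = 0.0431), and Krt8 at 1.35 to 5.15 against 4.18 to 907 CPM (edgeR adjusted p = 0.0168). Their part in the H2-DMa and class II values was not tested.

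**Figure D5:**
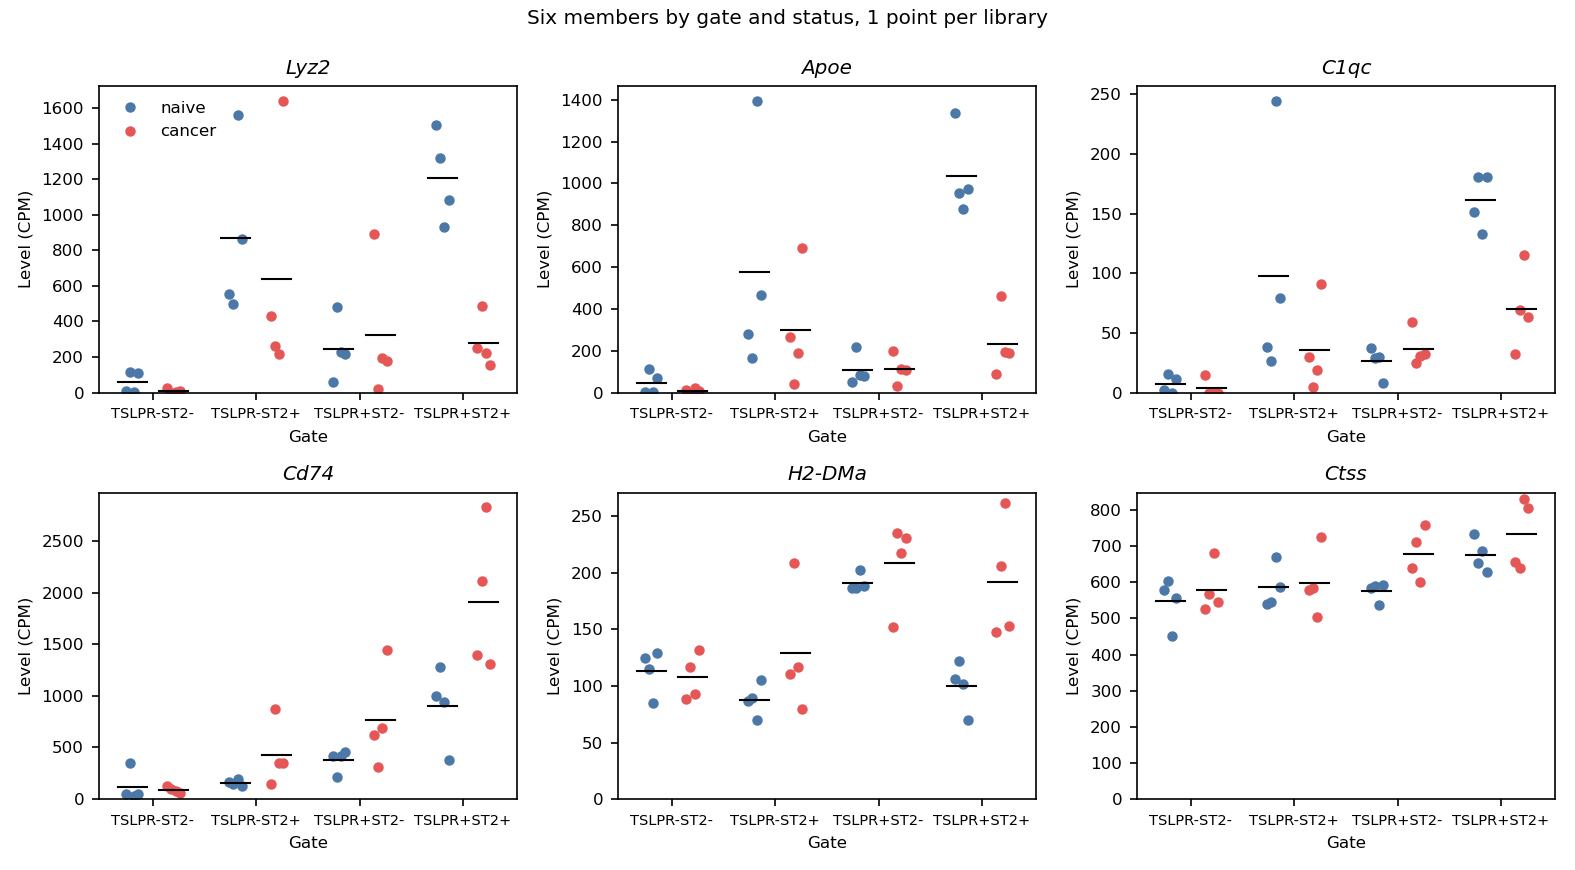
Levels (CPM) of Lyz2, Apoe, C1qc, Cd74, H2-DMa and Ctss by gate, with 1 point per library (blue naive, red cancer) and a line at the group mean. In the TSLPR+ST2+ gate the cancer libraries lie below the naive ones for Lyz2, Apoe and C1qc and above them for Cd74 and H2-DMa, while Ctss overlaps.

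In the other 3 gates 0 of the 31 genes passed by edgeR (of all genes tested, 0.0606% were higher and 0.148% lower in TSLPR-ST2-, 0.0471% and 0.155% in TSLPR-ST2+, and 0.0269% and 0.0202% in TSLPR+ST2-). Unadjusted p values under 0.05 were found for 4, 8 and 4 of the 31. DESeq2 called Itgax higher in TSLPR-ST2- and in TSLPR+ST2-, where it called 0.198% and 0.123% of 30794 genes higher. Itgax was at 0 in 12 of 16 ST2- libraries and at most at 2.02 CPM in them, so both calls rest on few counts. In TSLPR-ST2- cancer libraries, Cd86 (35.6 to 44.5 against 64.4 to 77.2 CPM) and Lgmn (6.69 to 37.8 against 41.9 to 58.2 CPM) lay wholly below naive ones, 2 of 31 where 2.99% of all genes did, and 0 lay wholly above, where 2.35% did. In TSLPR-ST2+ that held for Itgam alone, at 0.309 to 2.62 CPM in naive libraries and 0 in all 4 cancer libraries, where 2.11% of all genes did, and 0 genes lay wholly above, where 1.53% did. About 68.7% of the exon bases of Itgam are shared with Gm49368 on the same strand.

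In TSLPR+ST2-, 6 genes (Csf1r, Fcer1g, H2-Aa, H2-Ab1, Ctss and Cybb) lay wholly above naive libraries, where 2.95% of all genes did, and 0 lay wholly below, where 4.02% did. Csf1r was at 3.54, 5.86, 13.5 and 14.8 CPM in naive and 16.1, 21.9, 25.5 and 26.8 CPM in cancer libraries (edgeR adjusted p = 0.944). H2-Ab1 was at 65.1, 192, 210.4 and 225 CPM against 228, 335, 406 and 809 CPM (edgeR adjusted p = 0.897). The direction for Csf1r was thus the opposite of that in the TSLPR+ST2+ gate, and neither passed.

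No gene of the 31 had a cancer difference that differed between gates at the threshold. For the difference between ST2+ and ST2- gates the smallest edgeR adjusted p was 0.479, with 3 of 31 unadjusted p values under 0.05. DESeq2 called Itgax lower, where it called 0.0779% of genes lower, and that gene was at 0 in 20 of 32 libraries. For TSLPR+ against TSLPR- gates the smallest edgeR adjusted p was 0.816, with 0 of 31 unadjusted p values under 0.05 and 0 called by DESeq2. Of all genes, 0% passed in either test by edgeR.

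With the 4 gates of each mouse summed, 4 of the 31 genes were lower in cancer and 0 higher, where 0.926% of all 15338 genes tested were lower and 0.287% higher. Apoe was at 403, 416, 475 and 660 CPM in naive and 116, 125, 153 and 264 CPM in cancer mice, a log2 difference of -1.57 ± 0.268 (edgeR adjusted p = 0.0318). Cd68 was at 30.5, 43.8, 46.2 and 48.7 CPM against 12.9, 17.2, 18.9 and 22.0 CPM (log2 -1.25 ± 0.203, edgeR adjusted p = 0.0278). Both genes were lower in every cancer mouse than in any naive mouse.

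C1qb was at 77.7, 80.9, 102 and 133 CPM in naive and 32.7, 45.5, 48.1 and 53.8 CPM in cancer mice (log2 -1.13 ± 0.204, edgeR adjusted p = 0.0346). Cxcl16 was at 12.6, 14.6, 14.8 and 27.7 CPM against 4.33, 5.33, 5.92 and 6.47 CPM (log2 -1.66 ± 0.290, edgeR adjusted p = 0.0337). These 2 also separated without overlap. So did C1qa, C1qc and Lgmn, which did not pass by edgeR. The share of all genes that separated per mouse was not counted. These separations therefore describe the values only and cannot be set against genes at large. With each of the 8 mice left out in turn, each call was lost in at least 6 of the 8 fits. All 4 were lost when the mean of the 4 gate differences was tested in the model of 32 libraries instead of the summed counts. In summed counts deeper libraries weigh more. TSLPR+ST2+ libraries held 6607867 to 8839946 counts in naive and 4038718 to 5816224 in cancer mice. This gate, with high core sums, therefore weighed more in the sums of naive mice, and its part in the 4 calls was not tested further. DESeq2 called 13 of the 31 per mouse, 4 class II genes higher and 9 genes lower, where it called 1.76% and 2.55% of 30635 genes higher and lower. With the core sum in the model the Apoe difference was -0.51 and that of C1qb -0.68, and with the mitochondrial share -0.42 and -0.57. In the mean of the 4 gate differences C1qb was at -0.50 and Cxcl16 at -0.98. Cd68 was at -1.34 with the core sum, -1.25 with the mitochondrial share and -0.88 in the mean of the gates.

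Class II genes went the other way per mouse without passing. Cd74 was at 261, 402, 422 and 544 CPM in naive and 473, 767, 768 and 819 CPM in cancer mice (log2 0.80 ± 0.225, edgeR adjusted p = 0.121), and H2-Ab1 at 110, 197, 231 and 242 CPM against 215, 381, 418 and 496 CPM (log2 0.95 ± 0.286, edgeR adjusted p = 0.140). Of all 186 genes called per mouse, 0 were also called with the core sum in the model, 82 with the B cell sum and 0 with the mitochondrial share. With 8 mice and 1 more term, the median standard error went from 0.1002 to 0.176 with the core sum, and the median share of the log2 fold change kept was 0.853. In the TSLPR+ST2+ gate, 301 of 618 genes called between cancer and naive were called both with and without the core sum, with a median share of 0.995, and 2 of 618 both with and without the mitochondrial share, with a median share of 0.350.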

How the data were processed

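RNA of 200 sorted cells per library was amplified with SMART-Seq v4 and read as 58-base single reads, per the labels' protocols. The authors deposited raw gene counts on GRCm38, and the submitters' processing notes list SAMtools 1.2, FastQC 0.11.3, Picard 1.134 and HTSeq 0.4.1. Aligner, annotation release and strand setting were not given in the sources used here. Positions and exon lengths are from GENCODE M21.

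Counts of the 32 Treg libraries were fitted in edgeR 4.0.16 (R 4.3.3) with 1 mean per group, TMM scaling, filterByExpr (minimum count 10, total 15), quasi-likelihood F-tests and Benjamini-Hochberg adjustment over all 14861 genes tested, with a limit of 0.05. Per mouse, the 4 gates were summed (15338 genes tested). CPM use TMM-scaled totals, except those of the Foxp3-negative library, which use its plain total. Values after ± are standard errors of log2 fold changes. Alternatives were limma 3.58.1, DESeq2 1.42.0, other scaling, no filter, thinned counts, marker sums or the mitochondrial share as covariates, and libraries or mice left out. The fits were tested on simulated counts with planted changes. For cancer versus naive in TSLPR+ST2+, 20 of 78 2-fold and 63 of 122 4-fold changes were recovered, so many real changes could be missed. Between ST2 gates it was 52 of 105 and 70 of 95. False calls were 1 and 10 of 14861 genes.

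Gates of 1 mouse share that animal, so mouse pairs them by the labels. Deviations of same-mouse libraries had a mean correlation of 0.00993 over 48 pairs, and the mouse correlation in limma was 0.0218. The genes and marker lists were chosen with earlier results of these data known. Genes described are all that passed in any comparison and the 2 of highest mean CPM per role; the 10 genes most like the core were ranked by correlation among genes of at least 1 CPM.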

Additional observations from a re-analysis of the deposited data

Results flagged for a closer look

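In 152 groups of 4 libraries (genes named by rule and marker sums), 17 held a library whose gap to the nearest other exceeded Dixon's 95% critical value. Chance flags about 1 in 20 groups, and genes of 1 list in 1 library are not independent. Several of these values come from the same libraries.

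The naive TSLPR-ST2- library of mouse 2 stood above the other 3 in Cd74 (352.91 CPM), H2-Aa (86.3503 CPM), H2-Ab1 (176.664 CPM), the class II sum (812.194 CPM) and the B cell sum (189.804 CPM). The naive TSLPR+ST2- library of mouse 2 stood below the others in Cd74 (210.644 CPM) and the class II sum (558.672 CPM). The naive TSLPR-ST2+ library of mouse 3 stood above in C1qa (205.864 CPM) and Csf1r (179.783 CPM).

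In naive TSLPR+ST2- libraries, mouse 3 was high in H2-DMa (202.591 CPM) and low in Ctss (537.615 CPM), and mouse 4 was low in Cd68 (8.97469 CPM). In cancer TSLPR-ST2- libraries, mouse 5 was the only one with C1qa (1.24538 CPM) and C1qc (14.3218 CPM), the other 3 being at 0. In cancer TSLPR-ST2+ libraries, mouse 8 was high in Lyz2 (1641.31 CPM, the others at 217 to 429). In cancer TSLPR+ST2+ libraries, mouse 8 was low in Tyrobp (45.9566 CPM) and mouse 7 high in the epithelial sum (14071.9 CPM).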

How the results depend on the processing

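Counts of the 31 genes called in both gate comparisons kept within 1.5 times under other scaling, DESeq2, no filter, thinned counts, the mitochondrial share and the replicate block. Over all genes, DESeq2 moved the number called beyond 1.5 times in 8 comparisons and not in 1. Leaving out 1 mouse did so in 2 (mouse 8) to 6 (mouse 4). With mouse as a replicate block in edgeR, 17 of the 31 were called between ST2 gates and 23 between TSLPR gates. Of all genes, 740 and 1860 were called with that block, against 897 and 1996 without it. With limma's mouse effect 17 and 21 of the 31 were called. Over all genes, limma moved the number called beyond 1.5 times in 2 comparisons and not in 6. The block ended or gave single calls named above and, in limma only, ended those of H2-Eb1 and Cxcl16 (ST2) and Lyz2 (TSLPR) and gave Lgmn (ST2), and it changed no other call of the 31 genes. Leaving out 1 mouse gave 13 to 19 and 18 to 24 calls. The matching shares of all genes are not given here, so these counts show only how calls of the 31 moved.

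With the core sum as covariate, 0 were called between ST2 gates, 6 between TSLPR gates, 0 in TSLPR+ST2+ cancer versus naive and 0 per mouse. Of all genes, 37, 661, 316 and 1 were called there. Estimates turned sign for 5 genes between ST2 gates (Lyz2 -0.16, C1qb -0.78, C1qc -0.53, Apoe -0.24 and Fcer1g -0.0839) and for Lyz2 between TSLPR gates (-0.36). All but Fcer1g are part of that covariate. With the B cell sum, 2 were called between TSLPR gates and 1 per mouse, against 368 and 105 of all genes.

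For cancer versus naive in TSLPR+ST2+, leaving out 1 mouse gave 0 to 2 calls, the mitochondrial share 0, the replicate block in limma 2 and DESeq2 2. Of all genes, 4 were called there with the mitochondrial share, and numbers under the other settings are not given here. DESeq2 called 1 in TSLPR-ST2-, 1 in TSLPR+ST2- and 1 for status by ST2. Per mouse, leaving out 1 mouse gave 0 to 1 calls, leaving out the naive TSLPR-ST2+ library of mouse 3 gave 2, the mitochondrial share 0 and DESeq2 13. The cause of these changes was not tested. Alternatives leaving out single libraries were chosen after seeing the data.

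Libraries of 200 cells leave sparse genes at 0 by sampling, so no fold is given for Itgax, Itgam and Cd14. Sort days were not given. In the main model of 32 libraries, p values measure the spread of libraries within groups, without pairing by mouse. Those per mouse measure the spread between these mice.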
